A study of Homo sapiens with 6 samples.

Results

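HAND2-only regions are stretches of the genome where peaks of HAND2 were called in both replicate libraries and no peak of MEIS2 or TCF4 was called in any. They were found by pooling the peak intervals of all 5 lists on chromosomes 1 to 22 and X, merging intervals that share at least 1 bp, and keeping merged regions with peaks of HAND2 replicates 1 and 2 and of no other library. Of 61457 merged regions, 22821 held both HAND2 replicates and 7423 of these were HAND2-only, which is 32.5% of the HAND2 regions (95% exact binomial interval 31.9 to 33.1%). These regions were chosen by the peak calls themselves, so their number, their HAND2 fold and the absence of the other factors are descriptions and carry no test.

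The libraries were made by CUT&Tag, in which an antibody brings a transposase to a bound protein and the enzyme cuts and tags the DNA beside it. All 6 samples were cells of the line SK-N-BE(2), which was established from a human neuroblastoma and has amplified MYCN, and no treatment or genetic change is named in the labels. They comprised 2 HAND2, 2 MEIS2, 1 TCF4 and 1 non-specific IgG library, the last of which has no peak list here. The labels name no separate cultures, so the spread between replicates may be technical, and TCF4 has no replicate. The lists held 9595 to 33484 peaks, and the median number of fragments piled up at a summit was 34 and 41 in the HAND2 lists, 22 and 13 in the MEIS2 lists and 60 in the TCF4 list. All 13876 peak identifiers of MEIS2 replicate 2, including those on chromosomes left out here, carry the word Flag, and no other list has it, although the labels give one MEIS2 antibody for both replicates.

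The transcription factor HAND2, of the basic helix-loop-helix (bHLH) family, is needed for sympathetic neurons, the heart and the limb, and belongs to the adrenergic set of regulators in neuroblastoma. Factors of this family bind DNA as pairs at the E-box, a short motif with the letters CANNTG, and HAND2 usually pairs with an E protein. TCF4 is one E protein. TCF3 and TCF12 are others and were not profiled here, so a region with no TCF4 peak is not shown to lack an E protein. MEIS2 is a homeodomain factor of the TALE class whose core motif is TGACAG.

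The DNA under some of these regions can be shown where they cover a RefSeq transcript start. The RefSeq table of promoters (GRCh38.p14, the same build as the files) gives 300 bases around a start, 250 before it and 50 after it, and is not complete. Both HAND2 summits, the bases with most fragments in each replicate, fell inside such a window for 69 genes, 44 of them protein-coding, and for 47 of the 69 the window's upstream part held an E-box. Below are the 250 bases before the start for the 6 genes whose region had the highest fold in its weaker replicate. They were chosen after their values were seen, and are shown because here the summits and the sequence coincide. Fold is the authors' enrichment of the pile-up over the local IgG background. Sequences run 5′ to 3′ on the strand of the gene, with E-boxes (CANNTG) in capitals.
LINC00941: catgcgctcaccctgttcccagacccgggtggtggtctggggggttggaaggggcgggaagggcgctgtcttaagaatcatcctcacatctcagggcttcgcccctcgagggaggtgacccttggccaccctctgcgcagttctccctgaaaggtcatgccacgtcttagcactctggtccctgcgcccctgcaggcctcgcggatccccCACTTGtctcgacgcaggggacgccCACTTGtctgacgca
MAP2: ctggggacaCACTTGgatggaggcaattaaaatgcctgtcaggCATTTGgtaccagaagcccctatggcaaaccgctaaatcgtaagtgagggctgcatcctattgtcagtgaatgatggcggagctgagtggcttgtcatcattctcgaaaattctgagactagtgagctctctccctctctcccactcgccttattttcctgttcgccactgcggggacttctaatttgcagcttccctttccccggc
ARHGAP24: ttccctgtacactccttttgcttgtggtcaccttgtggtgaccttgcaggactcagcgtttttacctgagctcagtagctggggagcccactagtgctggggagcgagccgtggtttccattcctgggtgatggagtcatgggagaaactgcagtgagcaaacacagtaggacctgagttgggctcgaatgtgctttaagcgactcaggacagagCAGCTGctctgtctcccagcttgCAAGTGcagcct
MAP2K5: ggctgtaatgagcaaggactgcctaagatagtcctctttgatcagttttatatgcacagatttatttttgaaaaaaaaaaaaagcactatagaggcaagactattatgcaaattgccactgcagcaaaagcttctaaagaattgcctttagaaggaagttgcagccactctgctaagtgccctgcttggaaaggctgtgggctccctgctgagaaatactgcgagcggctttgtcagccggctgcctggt
PARM1-AS1: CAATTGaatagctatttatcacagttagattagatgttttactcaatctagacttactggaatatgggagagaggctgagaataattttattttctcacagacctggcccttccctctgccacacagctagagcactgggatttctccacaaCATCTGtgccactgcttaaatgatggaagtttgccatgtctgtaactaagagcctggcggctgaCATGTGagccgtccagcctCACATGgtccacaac
MAPK10: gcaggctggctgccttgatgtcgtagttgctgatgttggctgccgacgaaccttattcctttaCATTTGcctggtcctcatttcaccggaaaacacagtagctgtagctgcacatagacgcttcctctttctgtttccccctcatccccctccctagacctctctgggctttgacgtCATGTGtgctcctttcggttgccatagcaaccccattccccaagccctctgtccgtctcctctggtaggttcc

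LINC00941, a long non-coding RNA (chr12:30795431-30795680, plus strand), had folds of 14.9 and 16.3 in HAND2 replicates 1 and 2, with summits at positions -147 and -161 from the start. The MAP2 window (chr2:209579357-209579606, plus strand) lies at a start inside the gene of this microtubule-associated protein of neurons. Its folds were 14.4 and 15.4, its summits were at -74 and -59, and its E-boxes read CACTTG and CATTTG. ARHGAP24, a GTPase-activating protein (chr4:85827687-85827936, plus strand), had folds of 11.2 and 12.9 and summits at -158 and -173, and its E-boxes read CAGCTG and CAAGTG. The MAP2K5 window (chr15:67548844-67549093, plus strand), of a MAP kinase kinase, had folds of 10.96 and 14.7 with both summits at -7 and no E-box in these 250 bases. PARM1-AS1, an antisense RNA (chr4:74970363-74970612, minus strand), had folds of 18.1 and 10.1, summits at -9 and 25, and 4 E-boxes, one of them CATCTG. MAPK10, a JNK kinase of neurons (chr4:86360054-86360303, minus strand), had folds of 9.80 and 11.4 and summits at -198 and -231. Thus 5 of the 6 sequences hold an E-box, and an E-box is common in any window of this length, as the shares given further on show. A match is a description of the letters, not of binding.

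HAND2 signal at these regions was of moderate height, with similar medians in both replicates. The fold ranged from 1.17 to 96.7 in replicate 1 (median 5.35, quartiles 3.93 and 7.72) and from 1.18 to 91.7 in replicate 2 (median 5.32, quartiles 4.02 and 7.33). In its weaker replicate, the fold was at least 5 in 3424 regions (46.1%), at least 10 in 607 (8.18%), at least 20 in 50 and at least 50 in 2. The median pile-up was 28 and 32 fragments over a local background worth 5 IgG fragments. Over the 7423 regions, log2 fold in the replicates correlated at 0.806 by Pearson's and 0.776 by Spearman's coefficient. For the pooled other HAND2 regions these coefficients were higher, 0.906 and 0.895. In the classes with MEIS2 and no TCF4 they ran from 0.763 to 0.849 and from 0.725 to 0.812, so the lower values were not particular to HAND2-only regions. The regions share libraries and background, and the rule requires a call in both replicates, so this is a description. The median difference, replicate 2 minus replicate 1, was 0.01 on the log2 scale. Folds lay within 1.5 times of each other in 6220 regions (83.8%), differed by more than 2 times in 226 (3.04%), and had overlapping 95% counting intervals in 7196 (96.9%). Each replicate gave a single peak in 7281 regions (98.1%), and the summits were within 100 bp of each other in 5068 (68.3%), with a median gap of 51 bp.

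**Figure D1:**
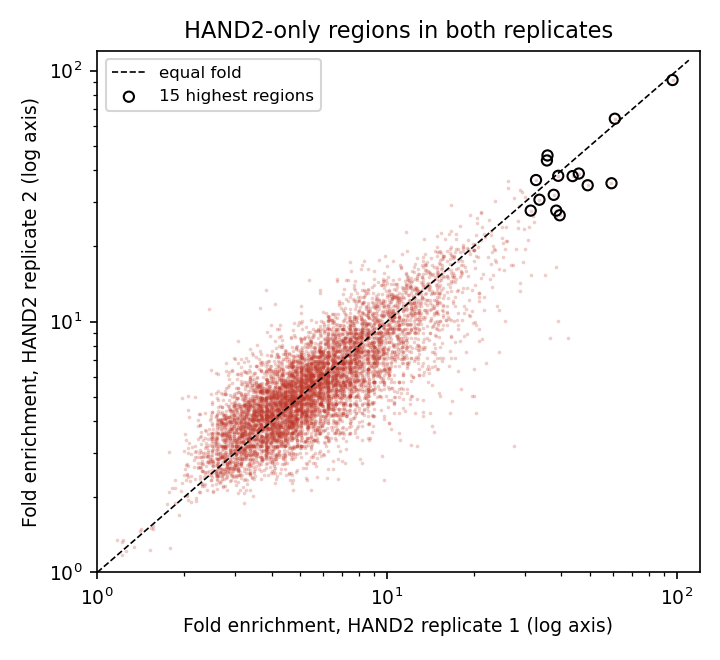
Fold enrichment of the 7423 HAND2-only regions in HAND2 replicate 1 (x axis) and replicate 2 (y axis), both on log axes, 1 point per region, with the line of equal fold and the 15 highest regions circled. Points follow the line, with r = 0.806 on the log2 scale, and the region in SLC39A11 stands at the top with 96.7 and 91.7.

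The threshold of the peak caller decides which regions belong. Just inside it, the 3 members with the lowest −log10 q in replicate 1 had values of 2.01, 2.03 and 2.03. They lay 92625 bp from EDN3 (folds 3.26 and 3.64), in TMEM177 (1.86 and 2.18) and 46132 bp from GDF10 (2.00 and 3.57). In replicate 2 the 3 lowest all had −log10 q of 2.00 and lay in ATXN1 (folds 4.31 and 3.23), 30514 bp from RFX7 (12.1 and 3.23) and 29070 bp from SPRY4 (3.49 and 2.366). Just outside was a region in PLXNA4 with HAND2 folds of 14.9 and 17.5, left out by a MEIS2 replicate 2 peak of fold 2.99 and −log10 q 2.09. A region in PTK7 (HAND2 folds 7.18 and 5.66) was left out by a TCF4 peak of fold 2.90 and −log10 q 2.01, and one 75956 bp from EFNB1 (7.76 and 10.4) by a MEIS2 replicate 1 peak of fold 3.83 and −log10 q 2.04. Regions called in one HAND2 replicate alone, with no other library, numbered 4687 in replicate 1 and 5207 in replicate 2. Their median folds were 4.53 and 3.72, and −log10 q reached 5 in 60.6 and 57.9% of them, against 85.2 and 89.5% of the HAND2-only regions in those replicates.

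The absence of a peak depends on what each library could show. At the median background of these regions a TCF4 peak needed a fold of 2.85, or 13 fragments, to reach the weakest call in its list, whereas MEIS2 replicates 1 and 2 needed folds of 3.91 and 3.52. The weaker HAND2 fold exceeded that floor in 97.1% of the regions for TCF4, and in 72.7 and 81.4% for MEIS2 replicates 1 and 2. A MEIS2 peak with the same deposited fold as the weaker HAND2 peak would therefore have gone uncalled at 27.3 and 18.6% of the regions. An equal fold is not an equal enrichment, because 1 is added to pile-up and background. The background unit of 1 IgG fragment is smaller in the MEIS2 lists, so the same enrichment gives a lower fold there. These shares may thus understate how often MEIS2 of equal enrichment would be missed, which was not computed. Signal below a floor is not shown to be absent at any region. The floors were computed after the values were seen. The nearest peak of TCF4 or MEIS2 lay a median of 6878 bp away. It was within 1 kb of the region for 873 (11.8%) and within 5 kb for 3122 (42.1%).

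HAND2-only regions were scarcest among the strongest and the weakest HAND2 regions. All 22821 HAND2 regions were ranked by fold in each replicate, and the worse rank split them into 10 groups, or deciles, a division made after the values were seen. HAND2-only regions made up 11.7% of the strongest decile (10.4 to 13.0%), 25.8% of the next, 42.0% of the fifth (39.9 to 44.0%) and 20.5% of the weakest (18.8 to 22.2%). In the strongest decile 81.0% of regions held a MEIS2 peak and 56.5% a TCF4 peak. In the weakest, 24.2% held MEIS2 and 76.5% TCF4. The background differed along this order, from a median of 5 IgG fragments in the strongest decile to 20 in the weakest, and its part in the shares was not tested.

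**Figure D2:**
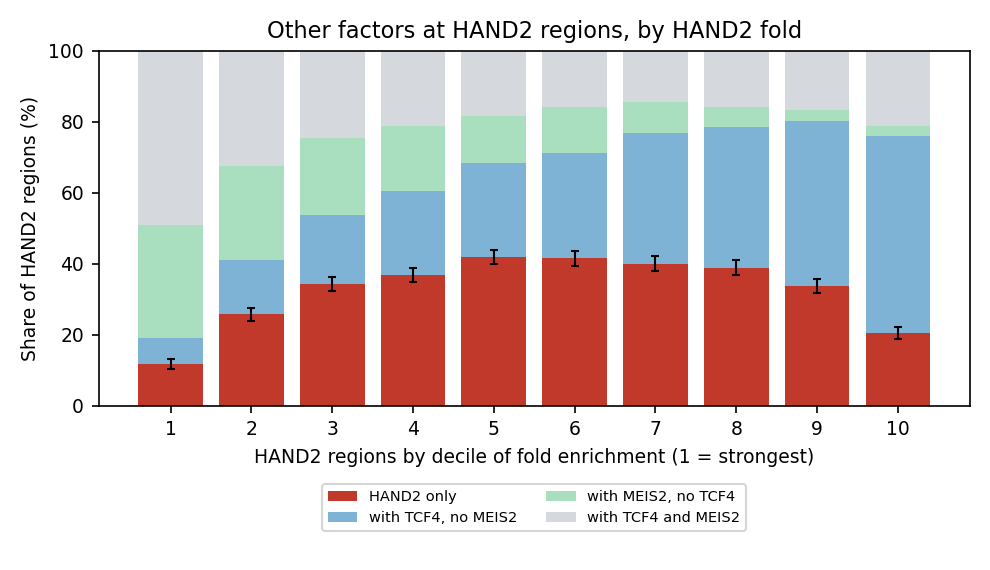
Share of HAND2 regions (y axis, percent) in each class of co-occurring peaks, by decile of HAND2 fold (x axis, 1 strongest), with 95% exact binomial intervals for the HAND2-only share. The HAND2-only share rises from 11.7% in decile 1 to 42.0% in decile 5 and falls to 20.5% in decile 10, where regions with TCF4 and no MEIS2 are most frequent.

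HAND2-only regions were narrower than the pooled other HAND2 regions, and lay over a lower background than those that hold TCF4. Their median width was 781 bp, against 1472 bp for the 15398 HAND2 regions that held another factor, although merging more lists widens a region by construction. The HAND2 peaks themselves had median widths of 656 and 627 bp in replicates 1 and 2, against 943 and 982 bp. Median background was 5 IgG fragments, against 11 in the others and 13 in the 6847 regions with HAND2 and TCF4 alone. It was lower still, with medians of 3.14 to 4.19 at replicate 1 summits, in the classes with MEIS2 and no TCF4, so a low background was not particular to HAND2-only regions. A background of 30 or more IgG fragments was found in 45 HAND2-only regions (0.606%) and in 1435 of the others (9.32%). Regions with HAND2 and TCF4 alone had lower median folds, 3.98 and 4.54, on larger pile-ups of 46 and 60 fragments. The 1059 regions with peaks in all 5 libraries had median folds of 14.9 and 14.1.

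HAND2-only regions rarely lay at the ends of genes. The RefSeq gene table gives both ends of each gene, and a summit within 1 kb of either end of a protein-coding gene was counted. This held for 224 replicate 1 summits, 3.02% (2.64 to 3.43%), and 221 replicate 2 summits, 2.98%. For the other HAND2 regions it was 16.4% and 16.6%. The difference was -13.4 percentage points in replicate 1 (95% Newcombe interval -14.1 to -12.7) and -13.6 in replicate 2 (-14.3 to -12.9). Away from gene ends, 60.4% of HAND2-only summits lay within a gene (59.3 to 61.5%), and so did 60.4% of the others (59.6 to 61.3%). The median distance to a gene end was 37204 bp, against 20340 bp.

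The contrast at gene ends was with regions that hold TCF4. Regions with HAND2 and TCF4 alone had 20.9% of summits at a gene end, and the difference from HAND2-only regions was -17.9 points (-19.0 to -16.9). Against regions with all 5 libraries, at 8.03%, it was -5.01 points (-6.84 to -3.46). Against the 967 regions with HAND2 and both MEIS2 replicates but no TCF4, at 2.28%, it was 0.74 points (-0.46 to 1.62), an interval that includes 0. When absence of TCF4 was not required, which adds these TCF4 regions by construction, the share was 11.9%. Regions are not replicates, so these intervals cover counting error only. The background also moved with position: the share at a gene end was 1.38% of HAND2-only regions under 4 IgG fragments and 8.60% at 16 or more, against 7.396 and 34.2% in regions with HAND2 and TCF4 alone. In regions with HAND2 and both MEIS2 replicates but no TCF4 it was 1.42 and 3.33%, the latter of only 30 regions. The part of background in these shares was not tested.

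The gap widened toward weaker HAND2 signal. In the strongest decile the share of replicate 1 summits at gene ends was 1.504% in HAND2-only and 2.08% in other HAND2 regions, and the interval of the difference included 0 (-1.74 to 1.78 points). In the fifth decile it was 2.49 and 10.5%, and in the weakest 9.23 and 47.6%, a difference of -38.4 points (-41.6 to -34.6). The share was lower in HAND2-only regions in each of deciles 2 to 10, in both replicates, with intervals that exclude 0. The make-up of the comparison group changed along this order. Regions with TCF4 and no MEIS2 were 7.31% of HAND2 regions in the strongest decile and 55.4% in the weakest. Median background went from 5 to 20 IgG fragments. The part of either in the gap was not tested.

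**Figure D3:**
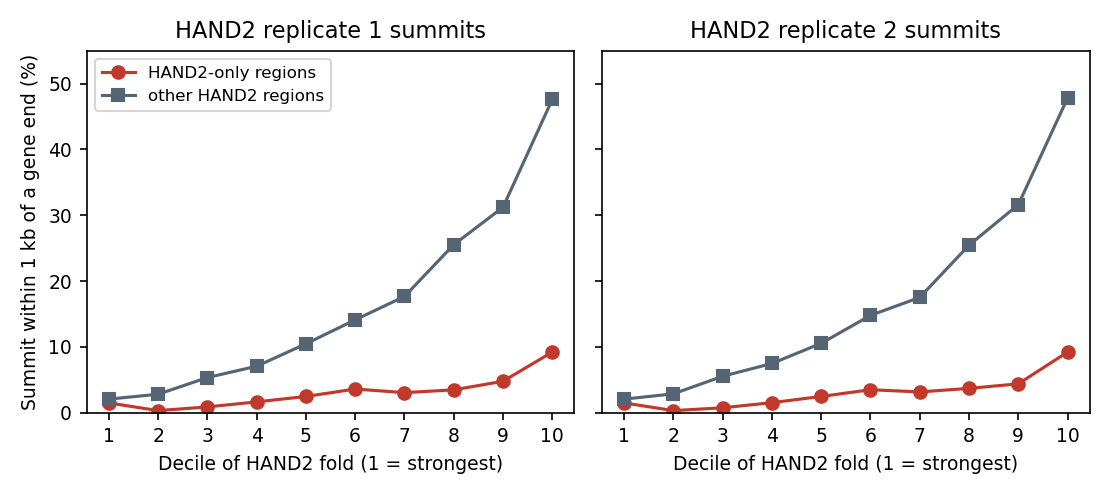
Share of summits within 1 kb of a protein-coding gene end (y axis, percent) by decile of HAND2 fold (x axis, 1 strongest) for HAND2 replicate 1 (left) and replicate 2 (right), in HAND2-only and other HAND2 regions. The lines meet at decile 1 (1.504 and 2.08%) and are farthest apart at decile 10 (9.23 and 47.6% in replicate 1).

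Counted by gene, 352 of 19974 protein-coding genes (1.76%) had a HAND2-only region overlapping the 1 kb around an end, and 97 of these also had another HAND2 region there. Other HAND2 regions reached the ends of 3765 genes (18.8%). Strand was taken from the promoter windows, which lack chromosome 8, and was known for 15812 genes. The HAND2-only regions were at the 5′ end of 142 of them (0.898%) and at the 3′ end of 135 (0.854%), so starts and stops were about equally frequent. Other HAND2 regions were at 2672 5′ ends (16.9%) and 762 3′ ends (4.82%).

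The 10 highest regions that overlapped the 1 kb around a gene end were at genes of varied function. At BAMBI, PKD1L3, RHOB, STMP1, CACNA2D3 and CCS the replicate 1 summit itself lay farther off, 1240 to 1494 bp from the end. Beyond the 3′ end of TAS2R1, a bitter taste receptor, folds were 22.9 and 16.97. The 3′ end of BAMBI, a decoy receptor that dampens TGF-beta and BMP signals, had folds of 16.9 and 15.6, with its summits 1494 and 1454 bp from the end. At the 5′ end of FGF1, a fibroblast growth factor, they were 14.9 (11.5 to 19.1, counting interval) and 18.2 (14.6 to 22.4). CACNA2D3, an auxiliary subunit of voltage-gated calcium channels, had 14.9 and 10.8 at its 5′ end. RHOB, a small GTPase, had 12.1 and 13.9 beyond its 3′ end, and RNF150, a RING finger protein, 15.9 and 21.3 beyond its own. STMP1 had 12.6 and 13.0 at its 5′ end, and CCS, the copper chaperone of superoxide dismutase, 11.7 and 10.6 beyond its 3′ end. CYP8B1, a sterol hydroxylase of bile acid synthesis (14.9 and 21.9), and PKD1L3 (13.5 and 12.9) had no strand in the table used. None of these regions held a TCF4 peak by the rule, and the nearest one was 1568 bp away at RHOB and 101949 bp away at RNF150.

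Promoters under HAND2-only regions had fewer CpG dinucleotides than those under other HAND2 regions. The regions overlapped 292 of 34789 RefSeq promoter windows, at 270 genes, and other HAND2 regions overlapped 4892. Median GC content was 53.7%, against 65.7% under other HAND2 regions and 58.7% in all windows. Windows rich in GC and CpG (GC of at least 55% and at least 0.65 of the CpG that base composition predicts) made up 16.8% (12.7 to 21.6%), against 66.0% under other HAND2 regions and 41.9% of all. The difference from other HAND2 regions was -49.3 points (-53.3 to -44.4).

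Motifs were counted on both strands in the whole 300 bases. An E-box, CANNTG, was present in 75.7% of the windows under HAND2-only regions (70.3 to 80.5%), in 61.0% under other HAND2 regions and in 68.7% of all windows. The difference from other HAND2 regions was 14.7 points (9.30 to 19.5). Of the E-box forms, each of which also counts among the E-boxes, CATCTG stood on one strand or the other in 16.4, 12.4 and 14.7% in the same order. CAGCTG stood in 20.5, 19.4 and 17.9%, and CAGGTG or CACCTG in 16.4, 15.7 and 20.6%, and the intervals of the differences from other HAND2 regions include 0 for both. CACGTG, the form that MYC proteins prefer, stood in 5.82, 9.28 and 7.24%. The MEIS core TGACAG stood in 16.1, 13.7 and 15.8%, a difference of 2.40 points (-1.499 to 7.14) from other HAND2 regions. TGANTCA, the AP-1 motif, stood in 13.4, 6.01 and 7.69%, a difference of 7.35 points (3.85 to 11.8). The GATA-type AGATAA (8.90, 4.89 and 10.4%) and the homeodomain core TAATTA (5.48, 1.92 and 4.86%) were likewise more frequent than under other HAND2 regions, and below or near their share of all windows. GGGCGG, the GC box, was less frequent, in 31.2, 68.6 and 44.9%, a difference of -37.4 points (-42.6 to -31.7). Base composition differs between the sets, and its part in the motif shares was not tested.

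The 15 highest HAND2-only regions all lay away from gene ends, 3667 to 374917 bp from the nearest. Of these, 9 were inside a protein-coding gene and 6 between genes. Their folds ran from 26.5 to 96.7, their pile-ups from 76 to 311 fragments, and their summits in the replicates were at most 121 bp apart. A TCF4 peak would have needed a fold of 2.62 to 3.46 there to be called. For the 100 highest regions the median floors of MEIS2 replicates 1 and 2 were 4.02 and 3.74. The regions were picked for high HAND2 fold, and signal of the other factors below a floor is not shown to be absent. The highest region, on chromosome 17 from 72773749 to 72777052, lay in SLC39A11, a zinc transporter, with folds of 96.7 (86.0 to 108) and 91.7 (81.8 to 102). Its nearest MEIS2 and TCF4 peaks were 832 and 1101 bp away. The second lay 90121 bp from SHOX2, a homeobox gene of the heart's pacemaker and the limb, with folds of 61.1 (53.8 to 69.1) and 64.3 (56.5 to 72.9), and no TCF4 peak within 98997 bp. In DPP6, an auxiliary subunit of Kv4 potassium channels, folds were 45.9 and 38.9.

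Among the rest of the 15 were regions in BCAR3, an adaptor of Src signalling (43.7 and 38.0), in CREB3L2, a bZIP factor of the secretory pathway (39.0 and 38.1), and in the kinesin adaptor TRAK1 (35.6 and 43.8). MYRIP, which links vesicles to myosin, held one with 49.3 and 34.9, and DGKI, a diacylglycerol kinase, one with 33.6 and 30.6. LRCH1 (32.7 and 36.6) and the ceramide synthase CERS6 (38.4 and 27.7) held one each. Between genes, regions lay 51047 bp from MPDZ (59.5 and 35.6), 71568 bp from PLXNA1, a semaphorin receptor (37.6 and 32.0), and 45849 bp from GLCE (31.3 and 27.7). The counting intervals of the replicates did not overlap at 2 of the 15, the MPDZ region (50.5 to 69.7 and 29.0 to 43.3) and the one 187915 bp from SLC39A11 (34.1 to 45.4 and 22.5 to 31.1).

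SOX9, a transcription factor of neural crest and cartilage, is the nearest protein-coding gene that ends before 3 of the 15 on chromosome 17. Their summits lay 331618, 348623 and 649694 bp beyond its end, with folds of 39.4 and 26.5, 35.8 and 45.9, and 96.7 and 91.7. From the end of SOX9 to the far end of SLC39A11, 29 of 50 HAND2 regions were HAND2-only (58.0%), and so were 3 of the 5 with a fold of at least 20 in the weaker replicate. This interval was examined after the values were seen. Which gene these regions act on, if any, was not measured.

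HAND2-only regions were gathered in some long genes. Of all protein-coding genes, 13.9% (2774) had such a summit inside or within 10 kb, 10.1% had one inside and 59 genes had 10 or more. PLXNA4, a plexin that receives semaphorin signals in axon guidance of sympathetic and sensory neurons, had the most. It held 60 HAND2-only and 29 other HAND2 regions, so 67.4% were HAND2-only, at 110 per Mb against a mean of 3.38 per Mb over genes. Over all HAND2 regions the share was 32.5%. PLXNA4 and the genes below were picked for their number of HAND2-only regions. That choice tends to raise their shares, which are therefore given without intervals. Folds ran from 3.19 to 17.02 in replicate 1 and from 2.35 to 18.2 in replicate 2, over a median background of 5 IgG fragments, the same as for all HAND2-only regions. The highest, 159878 bp into the gene from its 5′ end, had folds of 17.02 (13.7 to 20.8) and 18.2 (14.9 to 21.9). In 5 of the 60 the weaker fold reached 10. One region overlapped the 1 kb around an end. TCF4 had 15 peaks in the same span and MEIS2 replicates 1 and 2 had 9 and 22.

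**Figure D4:**
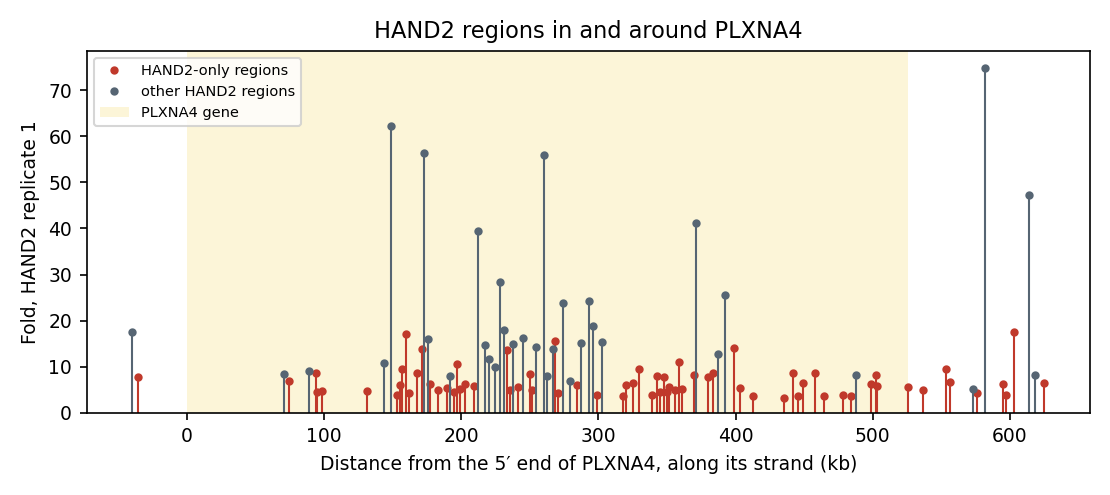
HAND2 regions in and around PLXNA4, with distance from its 5′ end along its strand (x axis, kb) and fold in HAND2 replicate 1 (y axis); 1 stem per region, the gene shaded. HAND2-only regions are spread over most of the gene at folds of up to 17.02 within 10 kb of it, below the tallest regions shared with other factors.

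In the kinase gene PRKCE, 37 HAND2-only regions stood beside 38 others (49.3%), and in ZFHX3, a homeobox factor of neurons, 31 beside 20 (60.8%). ALK, the receptor tyrosine kinase mutated or amplified in some neuroblastomas, held 29 beside 20 (59.2%). The highest in ALK had folds of 28.7 (23.4 to 34.9) and 14.2 (10.8 to 18.3), whose counting intervals do not overlap. Others in ALK had 11.8 and 13.6, 11.8 and 11.9, and 16.0 and 10.1, and none was at a gene end. Next came the RNA-binding protein MSI2 (23 beside 41), KLHL29 (20 beside 11), the cell adhesion gene NTM (20 beside 12), ZNF423 (20 beside 27), CAMTA1 (19 beside 42) and SLC39A11 (18 beside 10). KLHL29 differed in its background, a median of 12.6 IgG fragments. ZNF423 had low folds, 6.93 and 7.24 at most. The share that was HAND2-only thus ranged from 31.1% in CAMTA1 to 67.4% in PLXNA4.

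**Figure D5:**
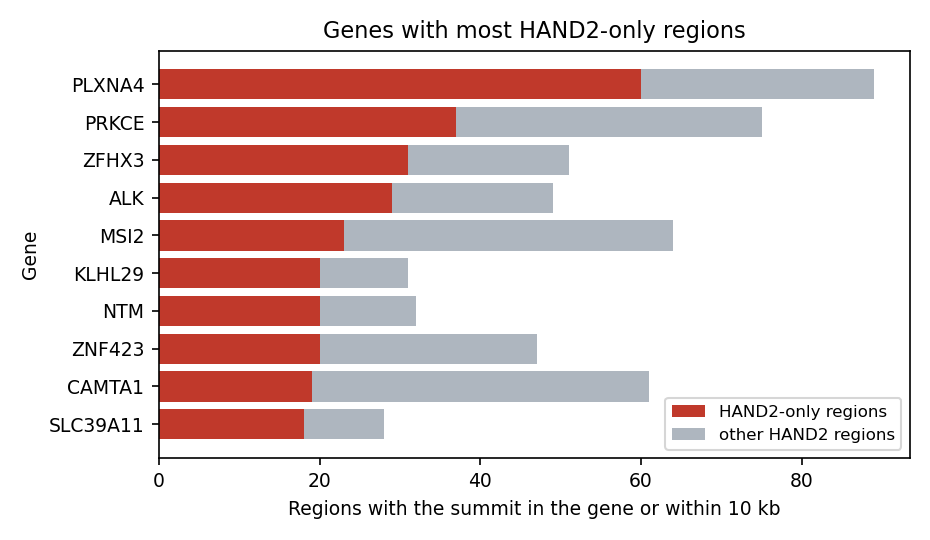
Number of HAND2-only and other HAND2 regions (x axis) with the summit in the gene or within 10 kb, for the 10 genes with most HAND2-only regions (y axis). PLXNA4 has 60 and 29, and PRKCE, MSI2, ZNF423 and CAMTA1 have more other HAND2 regions than HAND2-only ones.

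Neighbouring HAND2-only regions often formed groups. Chains with gaps of at most 12.5 kb numbered 1129 and held 2955 of the regions (39.8%), and 79 chains had 5 or more. The longest had 19 regions over 96400 bp in PLXNA4, and the next 15 in the same gene. One across ATG7 and VGLL4 and one in KLHL29 had 12 each. The median distance to the next HAND2-only region was 22476 bp and to the nearest other HAND2 region 14185 bp, and 1046 regions (14.1%) had no other HAND2 region within 100 kb.

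Gene groups were described with all 19974 protein-coding genes as background, of which 25.4% had a HAND2-only summit inside or within 50 kb. This share rises with gene length, from 17.9% of genes under 10 kb to 44.1% over 200 kb. The lists differ in gene length, so it is given for them, and no list was tested. A HAND2 region of any class lay within 50 kb of 11155 of all genes. The same held for 26 of 29 adrenergic regulators, 21 of 25 catecholamine genes and 23 of 28 neuronal differentiation genes. List shares therefore do not separate HAND2-only regions from HAND2 regions in general. The HAND2-only share of HAND2 regions ran from 0% in the liver list to 44.3% in axon guidance, against 25.9% over all genes. Some genes stand in several lists.

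Adrenergic regulators, the transcription factors of the sympathetic neuroblastoma state, had such a region at 18 of 29 genes (62.1%, median length 29265 bp), and 1 of 29 had one at an end. The highest was in EYA1, a transcriptional coactivator (20.6 and 19.7). The genes of the profiled factors were among them: MEIS2 held 2 HAND2-only regions (best folds 19.3 and 26.6) beside 7 other HAND2 regions, and TCF4 held 2 (best 10.2 and 8.27) beside 6. HAND2 itself had 1, 19531 bp away (3.70 and 3.49), beside 9 others. MYCN was counted through 1 region 32315 bp away, with folds of only 1.40 and 1.47. HAND2 and MYCN are named here after their values were seen. ZNF536, a zinc finger repressor of neuronal differentiation, had 8 beside 12, the best with 8.22 and 9.43. This list had 34 HAND2-only beside 142 other HAND2 regions, a share of 19.3%, against 25.9% over all genes.

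Genes of catecholamine synthesis, storage and signalling had one at 14 of 25 (56.0%, median length 22967 bp). SLC6A2, the noradrenaline transporter by which neuroblastoma cells take up MIBG, had 15 HAND2-only and 2 other HAND2 regions, the highest with 23.2 and 19.97. DRD2, a dopamine receptor, had 5 (best 12.7 and 9.46), and SCG3, a granin of secretory granules, 2 (9.10 and 7.95). Of neuronal differentiation genes, 16 of 28 had one (57.1%, median length 108194 bp). NEFM, a neurofilament, had folds of 16.6 and 29.0 at the highest of 2 regions. MAP2 had 3 and no other HAND2 region, GFRA3, a receptor of the GDNF family, 1 (14.1 and 13.7), and ALK is described above.

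Axon guidance genes had one at 15 of 32 (46.9%), and are long, with a median of 247802 bp. Within 50 kb PLXNA4 had 64 of the 128 regions counted for this list. NRP2, a semaphorin co-receptor, had 8 (best 14.6 and 16.4), SEMA6D, a semaphorin, 8 (11.4 and 13.3), and the netrin receptor UNC5C 6 (12.7 and 13.6). Synaptic adhesion and cadherin genes had one at 14 of 38 (36.8%, median length 891265 bp), among them the teneurins TENM3 (25.6 and 19.5) and TENM4 (12.4 and 13.7), CTNNA2, a catenin (11.7 and 14.7), and CNTNAP5 (25.5 and 10.1). Potassium channel genes had one at 12 of 31 (38.7%, median length 345995 bp). DPP6 and KCNMA1, the large-conductance calcium-activated channel, had 17 each, with 23.7 and 17.3 at the highest in KCNMA1. KCNH2 (9.25 and 10.1) and KCNIP1 (9.09 and 8.92) had 3 each.

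Calcium and sodium channel genes, at 6 of 23 (26.1%), and glutamate and GABA receptor genes, at 7 of 27 (25.9%), were near the background although their median lengths were 246838 and 403064 bp. CACNA1C had 14 (best 8.90 and 8.04), CACNA2D3 13 and CACNA1D 1 (6.98 and 5.16). Among the receptors were GABRG3 (9.40 and 11.5), GRID1 (9.81 and 9.31) and GRIK4 (8.79 and 8.21).

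BMP and TGF-beta genes had a region at 15 of 34 (44.1%, median length 81255 bp). Ligand TGFB3 had 1, 40366 bp away (16.5 and 19.5), receptor TGFBR2 1 inside the gene (13.2 and 15.02), and receptor BMPR1B 4, the best of them the region already given for UNC5C. BAMBI, the decoy receptor, had 2. Genes of the mesenchymal state, the neuroblastoma state opposed to the adrenergic one, had one at 11 of 30 (36.7%, median length 51207 bp). TEAD1, a partner of YAP, had 10 (best 16.1 and 19.0), EGFR 14 (8.37 and 9.42) and TWIST2 3 (6.67 and 8.89), and TGFBR2 is also in this list. Neural crest genes had one at 10 of 24 (41.7%, median length 9881 bp), among them S100B (9.70 and 12.2), ETS1 (9.84 and 6.47), SOX9 (6.27 and 6.33, at its end) and ID2 (7.64 and 5.67). Heart and limb genes, the other tissues that need HAND2, had one at 10 of 35 (28.6%, 14.6 to 46.3%, median length 12484 bp), near the 25.4% of all genes. They included ALX4 (8.08 and 8.23), TBX20 (7.85 and 7.74), GATA6 (5.64 and 5.98) and TBX3 (9.40 and 5.39).

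The bHLH and ID genes had one at 9 of 32 (28.1%, median length 4372 bp). BHLHE40, a repressor of the circadian clock, had 3 (best 10.7 and 9.93), ID3 2 (5.79 and 6.34) and ID2 1, and TCF4 is given above. Lists with no tie to the lineage hold short genes, so their shares stand beside both 25.4% of all genes and 17.9% of those under 10 kb. Cell cycle genes had one at 7 of 34 (20.6%, median length 18560 bp), ribosomal protein genes at 9 of 36 (12.1 to 42.2%, median 5460 bp), and blood cell genes at 4 of 21 (19.0%, median 7372 bp). Liver genes (median 11597 bp) had one at 0 of 20 (0 to 16.8%). Cell cycle members with one included E2F1 (11.5 and 9.86), MCM3 (9.21 and 8.96), PCNA (8.41 and 7.36) and MCM2 (7.58 and 5.92). For ribosomal protein genes they included RPL4 (14.7 and 19.0), RPS24 (10.9 and 8.49) and RPL32 (7.76 and 8.27). In the blood list they were NKG7 (12.1 and 9.34), CD79A (3.97 and 3.89) and a single region shared by CD3E and CD3D (5.55 and 3.798).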

How the data were processed

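CUT&Tag peak lists of 2 HAND2, 2 MEIS2 and 1 TCF4 library were used, grouped by the antibody in the labels. The submitters' processing notes name MACS3 3.0.0a6, Bowtie2 and bcl2fastq 2.17 and the build hg38. Their options are not given in the sources used. Each sample has its own peak calls. The deposited lists give each peak's fold enrichment, −log10 p and −log10 q, and a score that was not used, all written by the authors' peak caller. The fold was read as a ratio of pile-up to local background at the summit, with 1 added to each. This addition lowers folds most where the background is low. The lowest −log10 q was 2.00 to 2.02. Depth is known only from the lists: whole pile-ups were recovered as those that return the deposited fold and Poisson p, to a relative tolerance of 5e-05 (96.4% of MEIS2 replicate 1 peaks, 100% in the other lists), and were tested on simulated data. IgG fragments are the local background divided by its unit for 1 IgG fragment. The TCF4 list does not name its control and was treated as called against the same IgG library. A region's fold is the highest of a replicate's peaks in it.

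Intervals on folds are exact 95% Poisson intervals with the background held fixed, those on shares exact binomial and those on differences Newcombe. Fragments may repeat a molecule, and regions are not replicates, so all intervals cover counting error only. Folds describe and rank regions within a list. Gene positions, promoter sequences and strands came from RefSeq tables of GRCh38.p14, matched by symbol (all 484 distinct genes of the 17 lists matched). Exons and introns are not given, and no sequence away from promoter windows was used. Coordinates are 1-based. Genes were named by rule: the 15 regions with the best worse rank of fold, the 10 best at gene ends, the 10 genes with most regions, up to 4 per list and those at the threshold. A few genes that this rule names are not reported here. Further cases are said to be chosen after their values were seen. The regions, lists and rules were chosen with earlier results of these data known. Calculations used Python 3.11.15, pandas 2.3.3 and scipy 1.17.1. Alternatives were stricter peaks, other merging, other windows, and leaving out each library.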

Additional observations from a re-analysis of the deposited data

How the results depend on the processing

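No paired analysis was possible because the results come from no test between groups of samples. The number of HAND2-only regions, 7423, ranged from 8404 to 14605 when 1 library was left out: 13093 without HAND2 replicate 1, 12354 without HAND2 replicate 2 and 14605 without TCF4. Their share of HAND2 regions, 32.5%, then ranged from 36.8 to 63.0%. It was 33.8% with −log10 q of at least 5 in every list, 30% with that limit in the HAND2 lists alone, 36.1% without peaks of 30 or more IgG fragments, 31.4% when merging across gaps of up to 500 bp and 31.9% when the HAND2 peaks had to overlap by 50 percent of each. The share at gene ends, 3.02%, ranged from 2.84 to 11.9% with 1 library left out, the highest without TCF4. It was 4.07% without peaks of 30 or more IgG fragments, 1.86% within 500 bp and 5.93% within 2 kb. Genes with a region at an end, 352, numbered 387 to 2351 with 1 library left out (655 without HAND2 replicate 1, 2351 without TCF4), 227 within 500 bp and 563 within 2 kb. The median folds of replicates 1 and 2, 5.35 and 5.32, were 6.07 and 5.99 with the limit of 5 in every list, and 6.02 and 5.92 with it in the HAND2 lists. Each gene counted once, 169 of the 484 list genes had a region within 50 kb, 127 had one within 10 kb and 17 at an end. The motif shares in promoters moved by less than their intervals when summits within 500 bp of a window were counted. The MEIS2 lists are the shallowest, and TCF4 has 1 library, so the absence that defines these regions rests on them.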

Other observations

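The share of HAND2 regions that were HAND2-only varied between chromosomes. It was lowest on chromosome 19, at 14.6% of 683 regions (12.1 to 17.5%), and on chromosome 17, at 21.97% of 1106. It was highest on chromosomes 3, at 43.3% of 1315 (40.6 to 46.0%), and 13, at 42.9% of 280. On chromosome 19, 82.9% of HAND2 regions held a TCF4 peak and 26.8% had the summit at a gene end, against 43.8 and 13.9% on chromosome 3.

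Of 18177 long non-coding RNA genes, 444 (2.44%) had a HAND2-only region at an end and 1845 (10.2%) another HAND2 region. HAND2-only regions covered 5 microRNA hairpins of RefSeq. MIR26A1, in CTDSPL, lay under a region with folds of 4.16 and 4.44. MIR6081, in AOPEP, had 8.02 and 6.99, MIR5093, in GSE1, 4.66 and 6.65, MIR1587 3.84 and 6.77, and MIR11399 3.29 and 2.67. These regions overlap the hairpins, and nothing here measures the microRNAs.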
